A study of Mus musculus with 32 samples.

Results

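The Nuclear factor I (NFI) family of transcription factors comprises Nfia, Nfib, Nfic and Nfix, and all 4 were among the 34453 genes of the count table. The family was chosen by measured values of these same libraries: Nfix had the smallest P value of all genes between the ages in control eyes, and the other members were taken with it by name. Each symbol matched 1 gene, namely ENSMUSG00000028565 (Nfia), ENSMUSG00000008575 (Nfib), ENSMUSG00000055053 (Nfic) and ENSMUSG00000001911 (Nfix). All 4 passed the filter on low counts in each of the 5 comparisons.

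NFI proteins bind DNA as homodimers or heterodimers through a conserved amino-terminal domain, at a palindrome whose arms read TTGGC, and they activate or repress transcription depending on the gene. In the developing retina, Nfia, Nfib and Nfix are active in late progenitors and take part in forming Müller glia and bipolar cells. Elsewhere, Nfia is known for the onset of astrocyte formation, Nfib for lung and brain maturation, Nfic for tooth root formation and Nfix for the fetal program of skeletal muscle and the quiescence of neural stem cells.

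The study asked whether Nrf2, a regulator of antioxidant genes, preserves the retinal pigment epithelium (RPE) of rd1 mice, which lose their rods through a mutation of Pde6b. Libraries of poly(A) RNA came from both eyes of 16 mice, 7 of them taken at postnatal day 20 (P20) and 9 others at P40. In each mouse the Nrf2 eye received AAV Best1 Nrf2, which carries the human NFE2L2 sequence, together with AAV Best1 GFP, and the control eye received AAV Best1 GFP alone. The 32 libraries therefore formed 4 groups: P20 control (n = 7), P20 Nrf2 (n = 7), P40 control (n = 9) and P40 Nrf2 (n = 9). All eyes carried virus and GFP, so no group was untreated. The Best1 promoter directs the transgene to RPE cells, while the RNA came from the fluid over an eyecup freed of retina and was amplified with an Ultra Low v4 kit. The labels give rd1 for every library, while the study's methods name fewer rd1 pairs at each age than are labelled here and also CD1 pairs at P40. The rd1 and CD1 pairs they name at P40 together equal the P40 pairs labelled rd1, so whether all P40 mice were rd1 cannot be told. The labels mention separate sequencing runs without assigning libraries to them. The mice differed between ages, so age, run, mouse and any difference of strain cannot be told apart in the age comparisons.

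Total counts per library ran from 16548332 in P20 Nrf2 mouse 2 to 50542797 in P20 Nrf2 mouse 7. Counts of the members were high enough that no library lay near 0, the lowest being 603 counts of Nfia in a P40 control library. Levels are given as CPM, a gene's share of a library's counts on the usual per-megaread scale, with library sizes adjusted by edgeR's trimmed mean of M-values (TMM).

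The labelled tissue was checked against marker genes. Of the 14 RPE markers all were measured, and their summed level had a lowest, median and highest value of 14830 CPM, 20406 CPM and 26520 CPM in P20 control libraries and 12241 CPM, 30159 CPM and 64867 CPM in P40 control libraries. In Nrf2 libraries the same sum was 22081 CPM, 23067 CPM and 32372 CPM at P20 and 15343 CPM, 18505 CPM and 81541 CPM at P40. Ttr had the highest median of them in 3 groups and Pmel, at 4411 CPM, in P20 control libraries. The highest sum, in P40 Nrf2 mouse 3, was mostly Ttr at 59345 CPM, while Rpe65 was at most 777 CPM in P40 Nrf2 libraries. Rpe65, the visual cycle isomerase, had a median of 1065 CPM in P20 control and 2201 CPM in P40 control libraries. Best1, whose promoter drives the transgene, was low throughout, with group medians between 1.38 CPM and 2.87 CPM.

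The human NFE2L2 transcript ran from 1082 CPM to 9506 CPM in P20 Nrf2 and from 3205 CPM to 10440 CPM in P40 Nrf2 libraries, and up to 99.15 CPM in P40 control libraries. At P20 the groups overlapped: the library labelled control of mouse 3 had 1098 CPM, above the library labelled Nrf2 of mouse 4 at 1082 CPM, where the next highest P20 control library had 154.3 CPM and the group median was 47.2 CPM. These same libraries were the closest of 496 pairs, with a squared difference of 7.76 times the sampling noise over 17260 genes. The next closest pair stood at 45.7 times. Changes of the members, the ratio of Nfix to Nfib and calls of gene lists are therefore also given without P20 mice 3 and 4, while levels and ranges are given with all mice.

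Nfix rose from P20 to P40 in Nrf2 eyes. By their labels these libraries had no part in choosing the family, but they came from the other eyes of the same mice, and that of P20 mouse 4 was close to a control library that had a part. Its lowest, median and highest levels were 38.3 CPM, 47.3 CPM and 63.4 CPM in the 7 P20 Nrf2 libraries and 46.5 CPM, 163 CPM and 358 CPM in the 9 P40 Nrf2 libraries. The P40 libraries lay above every P20 library in 8 of 9 mice, and mouse 9, at 46.5 CPM, lay within the P20 range. The share of all genes whose libraries separate by age in this way was not counted, here or for the other members and control eyes. Mouse 3 held the highest value, 358 CPM, against 179.8 CPM in the next highest library. The means were 46.7 CPM ± 8.34 (SD, n = 7) and 166 CPM ± 82.1 (SD, n = 9). The rise on the log2 scale was 1.88 (SE 0.29, 95% confidence interval 1.26 to 2.50), which is a 3.67-fold higher level (2.39 to 5.64), with an adjusted P of 0.00680 in edgeR's quasi-likelihood test after Benjamini-Hochberg adjustment over 16745 genes. Nfix ranked 15 of those genes by P value. A gene is called here at an adjusted P under 0.05, and 1 of the 4 members was called beside 0.502% of all genes tested (84 of 16745).

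The rise of Nfix in Nrf2 eyes was called with each of the 16 eyes left out in turn, with log2 fold changes from 1.64 without P40 mouse 3 to 2.00 without P40 mouse 9 and adjusted P values from 0.000868 to 0.0261. Without P20 Nrf2 mouse 4 alone the estimate was 1.83 (adjusted P 0.0258). Without P20 mice 3 and 4 the estimate was 1.89 but the adjusted P was 0.0563, above the threshold of 0.05, with fewer libraries in the fit. Over all other settings tried, the adjusted P ran from 3.70e-07 to 0.0563. The libraries of the ages were also set side by side in other measures: the share of counts in mitochondrial genes was 1.42% to 2.15% in P20 Nrf2 and 1.41% to 4.55% in P40 Nrf2 libraries. The share in the 50 most abundant genes had means of 21.7% and 25.01% in Nrf2 libraries and 18.7% and 25.1% in control libraries, and was highest among Nrf2 libraries in P40 mouse 3 (29.4%). Their part in the Nfix values was not tested. These are bulk samples, so more cells of a type with Nfix RNA and more Nfix RNA per cell cannot be told apart.

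In control eyes Nfix had a lowest, median and highest level of 36.1 CPM, 50.02 CPM and 58.6 CPM in the 7 P20 libraries and of 100.4 CPM, 199 CPM and 222 CPM in the 9 P40 libraries. All 9 P40 control libraries lay above every P20 control library, the lowest being that of mouse 8. The means were 49.6 CPM ± 7.82 (SD, n = 7) and 184 CPM ± 42.5 (SD, n = 9), and the log2 fold change was 1.92, or 1.94 without P20 mice 3 and 4. This contrast selected the family, so the values are a description and no test is read from them. Nfix was the 1 member called, where 14.8% of all genes tested were called (2483 of 16832), and 144 genes had a larger increase. The other members had log2 fold changes of 0.10 (Nfia), -0.25 (Nfib) and 0.06 (Nfic), or 0.17, -0.27 and 0.12 without those mice.

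**Figure D1:**
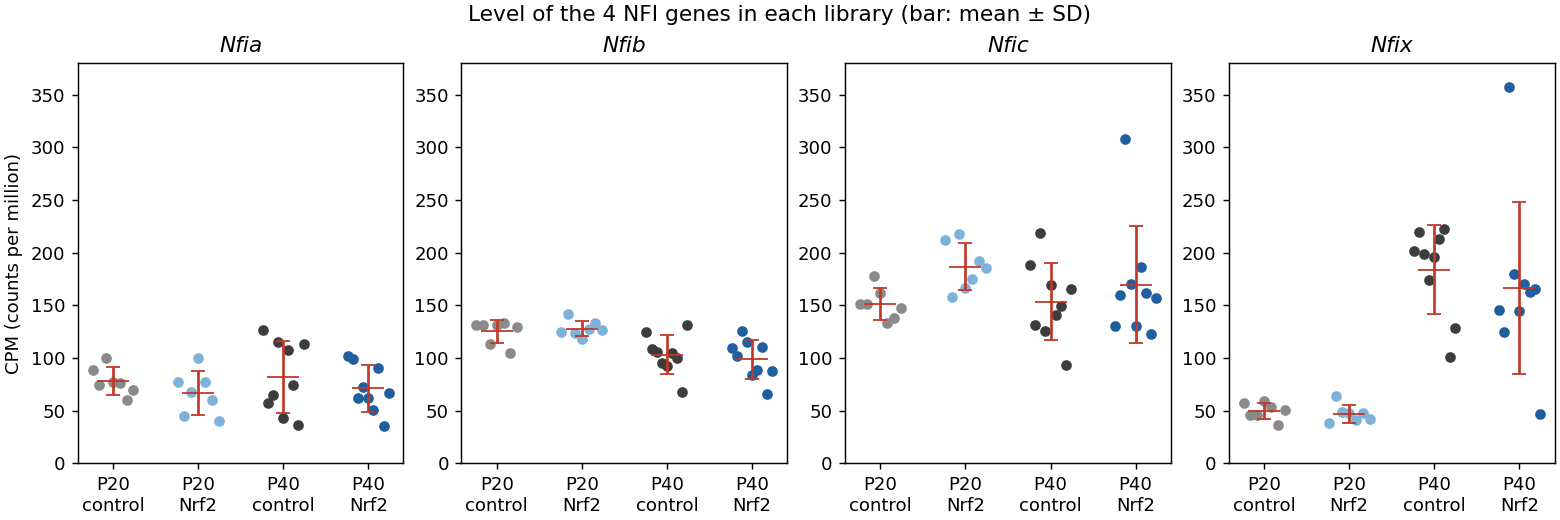
Level of each NFI gene in every library, in CPM, by age and eye; each point is 1 library and the bars are mean and SD. Nfix lies between 36.1 and 63.4 CPM in all P20 libraries and between 100.4 and 222 CPM in P40 control libraries, while P40 Nrf2 libraries spread from 46.5 to 358 CPM.

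Nfib, the member known for lung and brain maturation, had a lowest, median and highest level of 118 CPM, 126 CPM and 142 CPM in P20 Nrf2 libraries and of 65.3 CPM, 102 CPM and 126 CPM in P40 Nrf2 libraries. The P40 libraries lay below every P20 library in 8 of 9 mice and below the P20 median in all 9. The log2 fold change was -0.35 (SE 0.13, 95% confidence interval -0.63 to -0.07), with an unadjusted P of 0.0171 and an adjusted P of 0.127 in edgeR, so Nfib did not pass the threshold. Limma voom with quality weights called it at -0.31 and an adjusted P of 0.0305, and over all settings the adjusted P ran from 0.0305 to 0.384. Without P20 mice 3 and 4 the edgeR value was -0.38 (adjusted P 0.242). In control eyes the levels were 105 CPM, 131 CPM and 133 CPM at P20 and 67.5 CPM, 105 CPM and 131 CPM at P40. There, 9 of 9 P40 libraries lay below the P20 median but 5 of them within the P20 range.

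Nfia, the glial member, spanned 39.8 CPM to 100.1 CPM in P20 Nrf2 and 35.4 CPM to 102 CPM in P40 Nrf2 libraries, and 60.0 CPM to 100.3 CPM and 36.6 CPM to 126 CPM in the corresponding control libraries. The groups overlapped in both eyes, and in control eyes the P40 libraries were spread around the P20 range, with 4 above it and 3 below it. The age log2 fold change in Nrf2 eyes was 0.12 (95% confidence interval -0.36 to 0.59, adjusted P 0.771, edgeR), or 0.27 (adjusted P 0.557) without P20 mice 3 and 4. Nfic spanned 158 CPM to 218 CPM at P20 and 123 CPM to 308 CPM at P40 in Nrf2 eyes, and 133 CPM to 178 CPM and 93.7 CPM to 219 CPM in control eyes. Its groups overlapped as well, and the highest library was again P40 Nrf2 mouse 3. The log2 fold change of Nfic in Nrf2 eyes was -0.11 (95% confidence interval -0.50 to 0.28, adjusted P 0.742, edgeR), or -0.10 (adjusted P 0.822) without P20 mice 3 and 4. It moved to -0.27 (adjusted P 0.228) without P40 mouse 3 and to -0.30 (adjusted P 0.0698) in limma voom, and turned to 0.21 when offsets for length and GC content of transcripts were used.

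The mix of NFI transcripts differed between ages. Nfix counts relative to Nfib counts in the same library had a median ratio of 0.357 (0.306 to 0.447) in P20 Nrf2 and 1.56 (0.533 to 2.85) in P40 Nrf2 libraries. In control eyes the median ratio was 0.400 (0.345 to 0.446) at P20 and 1.88 (0.983 to 2.23) at P40. The ranges of the ages did not overlap in either eye, P40 Nrf2 mouse 9 included at 0.533. How many ratios of other genes separate the ages likewise was not counted. With age, 35.2% of all genes tested in control eyes and 25.8% in Nrf2 eyes had an unadjusted P under 0.05 in edgeR. Without P20 mice 3 and 4 the P20 medians were 0.329 (0.306 to 0.447) in Nrf2 and 0.387 (0.345 to 0.436) in control libraries. The ratios of Nfix to Nfia and to Nfic had medians of 0.714 and 0.232 in P20 Nrf2 libraries and of 2.35 and 1.06 in P40 Nrf2 libraries, and for both the P40 range reached into the P20 range, to 0.693 and 0.295 in mouse 9. These ratios hold the Nfix values that selected the family and carry no test of their own.

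**Figure D2:**
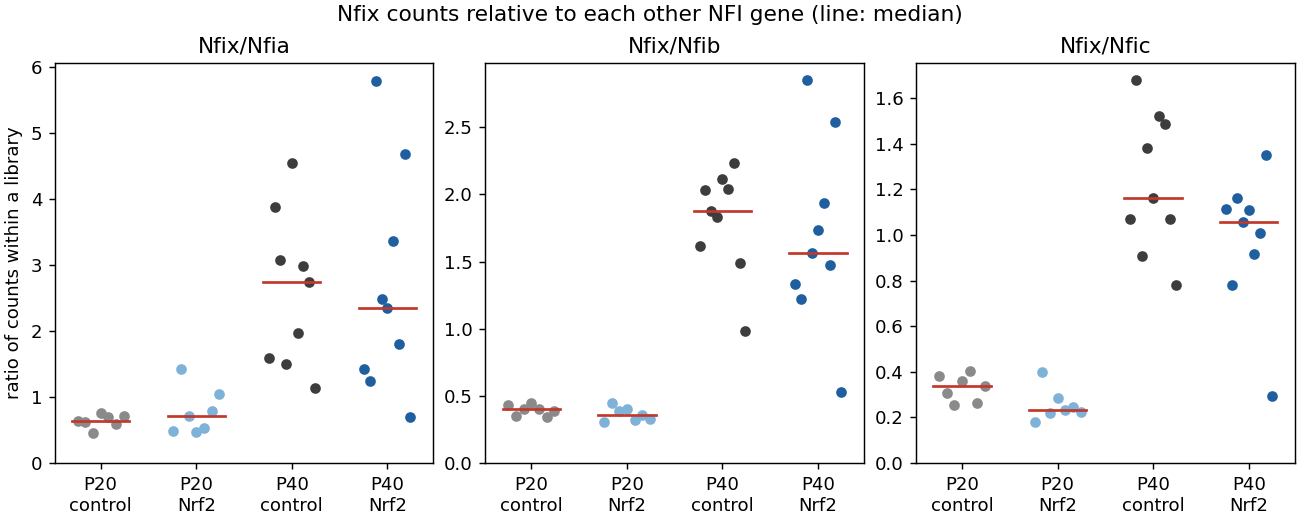
Ratio of Nfix counts to the counts of Nfia, Nfib and Nfic within each library, by age and eye; each point is 1 library and the line is the median. The Nfix to Nfib ratio is at most 0.447 at P20 and at least 0.533 at P40.

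Levels of different genes were compared per kilobase of the gene's median transcript length. In P20 control libraries the medians were 62.6 CPM per kilobase for Nfic, 39.9 for Nfib, 28.9 for Nfix and 8.20 for Nfia. The ranges of Nfib and Nfix overlapped there, and the other neighbours in this order did not. In P40 control libraries the order was Nfix at 115 CPM per kilobase, Nfic at 62.0, Nfib at 31.8 and Nfia at 8.04, with overlapping ranges for Nfix and Nfic and for Nfic and Nfib. In Nrf2 libraries the medians were 77.0 (Nfic), 38.3 (Nfib), 27.4 (Nfix) and 7.33 (Nfia) CPM per kilobase at P20 and 94.2 (Nfix), 66.2 (Nfic), 31.0 (Nfib) and 7.26 (Nfia) at P40. Nfib and Nfix overlapped at P20 and Nfix overlapped Nfic and Nfib at P40. Nfix thus made up a median of 21.2% of the family's summed level per kilobase in P20 control and 51.8% in P40 control libraries, and 17.1% and 47.4% in Nrf2 libraries. With the longest transcript as the length the order of the medians was the same, but Nfix and Nfia then overlapped in P20 libraries of both eyes, from 6.59 to 10.7 against 6.30 to 10.53 CPM per kilobase in control libraries. Nfib and Nfia then overlapped in P40 libraries of both eyes, from 7.40 to 14.36 against 3.84 to 13.26 CPM per kilobase in control libraries.

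Nrf2 and control eyes were compared within mouse, where eyes of the same age and replicate number were taken as those of 1 mouse. These comparisons hold the control libraries that selected the family, so for Nfix they are a description and no test is read from them. None of the 4 members was called by edgeR at P20, beside 3.41% of all genes tested (556 of 16303), and 1 had an unadjusted P under 0.05. Nfic, at 158 CPM, 186 CPM and 218 CPM (lowest, median, highest) in P20 Nrf2 libraries and 133 CPM, 151 CPM and 178 CPM in P20 control libraries, was that member. In 7 of 7 pairs the Nrf2 eye had the higher level, from 0.04 in mouse 4 to 0.49 in mouse 1 on the log2 scale, and the groups overlapped. The log2 fold change was 0.27 (SE 0.09, 95% confidence interval 0.06 to 0.48), with an unadjusted P of 0.0171 and an adjusted P of 0.168. DESeq2 called Nfic at 0.28 (adjusted P 0.0200), limma voom at 0.30 (0.0234) and edgeR with length and GC offsets at 0.44 (0.0283), within a range of 0.0200 to 0.466 over all settings. Without P20 mice 3 and 4 the log2 fold change was 0.30 and the adjusted P 0.222.

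At P20 the Nrf2 eye had more Nfix in 3 pairs and less in 4, with a log2 fold change of -0.12 in edgeR, or -0.14 without mice 3 and 4. Nfia stood at -0.30 (95% confidence interval -0.69 to 0.08, adjusted P 0.376), lower in 4 of 7 pairs, or at -0.40 (adjusted P 0.229) without those mice. Nfib stood at 0.00, from -0.20 to 0.21, and its sign differed among settings.

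At P40 edgeR called none of the 4 members between the eyes, beside 4.57% of all genes tested (762 of 16686), and none had an unadjusted P under 0.05 or was called by DESeq2 or limma voom. The Nrf2 eye had more Nfix in 3 pairs and less in 6, from -1.47 in mouse 9 to 0.85 in mouse 3 on the log2 scale. Mouse 9 had 46.5 CPM in the Nrf2 eye and 129 CPM in the control eye, and mouse 3 had 358 CPM and 199 CPM. Over all pairs the log2 fold change of Nfix was -0.30, given as a description. Nfic was higher in 6 of 9 pairs at 0.09 (95% confidence interval -0.25 to 0.43), Nfib lower in 6 of 9 at -0.11 (-0.40 to 0.18) and Nfia lower in 6 of 9 at -0.19 (-0.62 to 0.25). Each of these intervals spans 0.

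**Figure D3:**
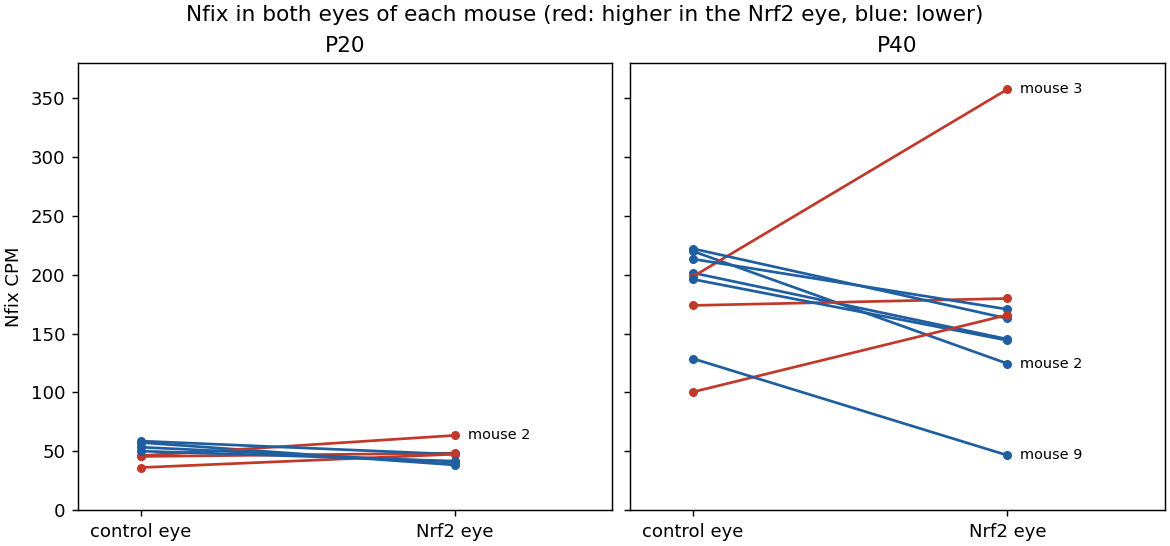
Nfix level in CPM in the control and the Nrf2 eye of each mouse, at P20 and P40; each line joins the eyes of 1 mouse, red where the Nrf2 eye is higher and blue where it is lower. At P40 the eyes of 3 mice go up and of 6 go down, with mouse 3 at 358 CPM and mouse 9 at 46.5 CPM in the Nrf2 eye.

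The difference of the age change between the eyes holds the control contrast that selected the family, so for the members it is a description and no test is read from it. None of the 4 was among the genes called, which made 0.00557% of all genes tested (1 of 17959, Serpine3). As differences in log2 fold change the members had -0.17 (Nfix), 0.12 (Nfia), -0.11 (Nfib) and -0.17 (Nfic), or -0.19, 0.18, -0.14 and -0.24 without P20 mice 3 and 4. The name of Serpine3 was taken after its values were seen.

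**Figure D4:**
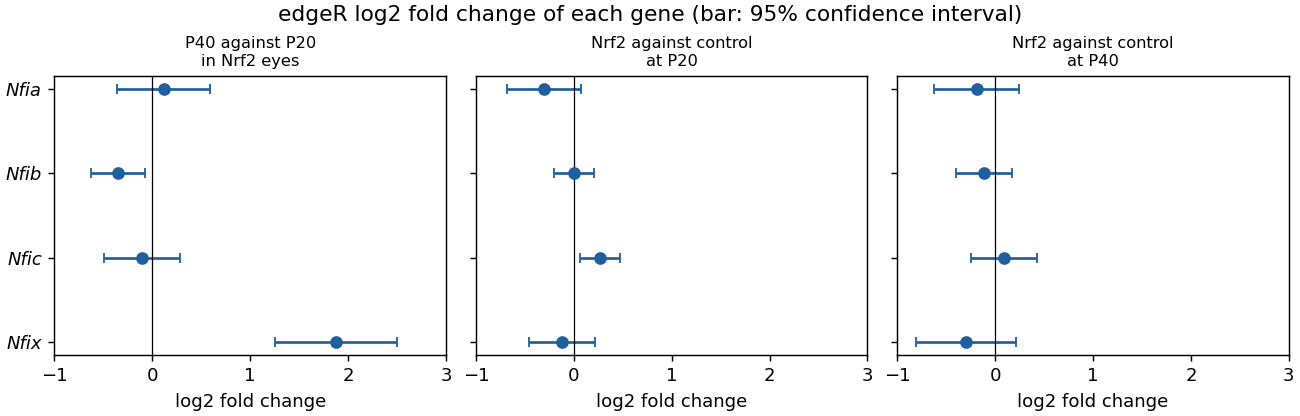
edgeR log2 fold change of each NFI gene with age in Nrf2 eyes and between the eyes at P20 and P40; points are estimates and bars 95% confidence intervals. Nfix in Nrf2 eyes, from 1.26 to 2.50, lies farthest from 0. Between the eyes the Nfix values are a description, since they hold the control libraries that selected the family.

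Marker genes were looked at in the eyes that stood apart in Nfix. P40 Nrf2 mouse 3, highest in Nfix and Nfic, had the highest summed level in its group of RPE markers (81541 CPM), of the 4 astrocyte markers (857 CPM, group median 72.8 CPM), of the 7 skeletal muscle markers (1814 CPM, median 148 CPM), of the 5 blood markers (5835 CPM, median 648 CPM), and of fibroblast (1104 CPM) and melanocyte markers (1369 CPM). The factors of retinal glia and late progenitors, a list of 14, also had their highest sum there (2707 CPM, median 1433 CPM) and their lowest in mouse 9 (1139 CPM). The sum of the 10 RPE transcription factors was likewise highest in mouse 3 (2197 CPM, median 1147 CPM), with 1147 CPM in mouse 9. Both lists hold Sox9, Lhx2 and Pax6, and Pax6 reached 1232 CPM in P40 Nrf2 libraries (median 213 CPM). The TMM factor of mouse 3, 0.685, was the lowest of its group. P40 Nrf2 mouse 9, lowest in Nfix, had 18430 CPM of RPE markers (median 18505 CPM), 70.8 CPM of astrocyte markers and 528 CPM of skeletal muscle markers. It was the lowest of its group in the sums of mural cell (98.1 CPM, median 234 CPM), fibroblast (491 CPM, median 661 CPM) and melanocyte markers (655 CPM, median 816 CPM), and of cone markers (30.3 CPM, median 50.03 CPM). P20 Nrf2 mouse 2, highest in Nfix at P20, was the highest of its group in inner retina neuron (635 CPM, median 146 CPM), fibroblast (1267 CPM, median 846 CPM), astrocyte (186 CPM, median 81.9 CPM) and cone markers (97.7 CPM, median 32.5 CPM). In the same P20 library the factors of retinal glia and late progenitors had the lowest sum of their group (939.6 CPM, median 1236 CPM). The fibroblast sum was thus at the same end of its group as Nfix in all 3 of these libraries. With age in Nrf2 eyes, where Nfix rose, 4 of 9 fibroblast markers had a positive log2 fold change and 5 a negative one (median -0.33). The 9 Müller glia markers, led in group medians by Dkk3 at P20 and Car14 at P40, summed to a median of 2896 CPM in P20 Nrf2 and 2898 CPM in P40 Nrf2 libraries, with 3668 CPM in mouse 3 and 2559 CPM in mouse 9. Dkk3 and Car14 made most of that sum, and 8 of the 9 had a positive log2 fold change with age in Nrf2 eyes (median 0.55), none of them called, against 3 of 9 in control eyes (median -0.30). The part of other cells in the Nfix values was not tested. Among defining markers, Pax2 of astrocytes was highest, at 2.67 CPM, in P40 Nrf2 mouse 3 and at 0 in 14 libraries, where 3 counts equal 0.0566 CPM to 0.182 CPM. Reads were amplified without molecular identifiers, so such limits cover counting error only.

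Over all genes tested, the share with an unadjusted P under 0.05 was 35.2% with age in control eyes, 25.8% with age in Nrf2 eyes, 18.2% between eyes at P20 and 13% at P40. In the same order DESeq2 called 25.9%, 10.5%, 12% and 8.27%, and limma voom 22.3%, 13.2%, 16% and 7.95%. For the difference of the age changes these shares were 2.39% (unadjusted P under 0.05), 0.0724% (DESeq2) and 0.00557% (limma voom). All these shares are to be set beside the counts of all lists that follow.

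From P20 to P40 in Nrf2 eyes edgeR called 1 of 14 RPE markers (Pmel, -2.51) and 1 of 6 mural cell markers (Myh11, -2.76), both lower, and none of the rod, cone, Müller glia, astrocyte, inner retina neuron, macrophage and microglia, endothelium, fibroblast, melanocyte, skeletal muscle, blood, Schwann cell or dividing cell lists. At an unadjusted P under 0.05 those lists held, in that order, 1, 5, 0, 1, 1, 1, 0, 3, 2, 6, 1, 1 and 0 markers, DESeq2 called 1, 3, 0, 0, 6, 1, 0, 2, 2, 3, 0, 1 and 0, and limma voom 0, 3, 0, 0, 1, 0, 1, 3, 4, 0, 0, 1 and 0. All 7 skeletal muscle markers had a positive log2 fold change (median 1.96), beside 1.88 for Nfix. So did 10 of 11 inner retina neuron (median 1.91), 7 of 9 cone (median 0.86), 8 of 10 endothelium (median 0.72) and 4 of 5 blood markers (median 0.95). All 4 Schwann cell markers were negative (median -1.46), as were 5 of 7 dividing cell markers (median -0.22). Also negative were 3 of 5 melanocyte (median -0.72) and 5 of 9 fibroblast markers (median -0.33). The rod and mural cell medians were -0.21 and -0.17. Without P20 mice 3 and 4 the skeletal muscle median was 2.75 in Nrf2 and 0.88 in control eyes. In control eyes, where Nfix had 1.92, all 9 cone markers (median 1.28) and all 7 muscle markers (median 0.55) were positive, while 12 of 13 inner retina neuron markers (median -1.29) and all 5 blood markers (median -0.24) were negative. Of the 14 RPE markers 10 were positive in control eyes (median 0.50) and 6 in Nrf2 eyes (median -0.02). In control eyes 8 of the 14 had an unadjusted P under 0.05 in edgeR, beside 35.2% of all genes. There DESeq2 called 7 and limma voom 4, beside 25.9% and 22.3% of all genes. Among P40 Nrf2 libraries the inner retina neuron sum was highest in mouse 6 (2612 CPM) and mouse 2 (782 CPM, median 215 CPM), whose Nfix levels were 171 CPM and 124 CPM. The part of such cells was not tested. In control eyes, where 14.8% of all genes were called, edgeR called 4 of 9 fibroblast markers lower with age, among them Col1a1 (-2.47), 2 of 5 melanocyte markers lower, and Ttr higher (2.20) with Pmel lower (-1.94) among the RPE markers. It also called Nr2e3 (-2.54) lower among the rod markers. Nr2e3 lay near 0, with control medians of 0.902 CPM at P20 and 0.128 CPM at P40, and over all groups 9 libraries held 3 or fewer counts of it. Further, edgeR called lower 1 each of the Müller glia, macrophage and microglia, mural cell and blood lists, and higher 1 dividing cell marker (Cdk1, 0.79). In Nrf2 against control eyes at P20 it called 1 RPE marker lower (Rpe65, -2.17), 2 of 9 cone markers lower with all 9 negative (median -2.35; 8 at an unadjusted P under 0.05, 6 called by DESeq2 and 9 by limma voom), 1 mural cell marker lower (Rgs5) and 1 rod marker higher (Rom1), while the other 9 of 10 rod markers had a negative log2 fold change (list median -1.30; DESeq2 called 5 and limma voom 6). At P40 it called all 9 cone markers and 4 of 14 RPE markers lower, 6 of 11 macrophage and microglia markers higher, 2 rod markers lower and Rom1 higher, and 1 each of the inner retina neuron and fibroblast lists higher and of the mural cell and dividing cell lists lower, while 8 of 12 inner retina neuron markers had a negative log2 fold change (median -0.80).

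Genes linked to NFI factors in other tissues were followed as a list of 19. In control eyes 3 of 19 were called lower with age, where 14.8% of all genes tested were called, namely Zcchc24 (-1.32), Col1a2 (-1.06) and Nfatc4 (-1.06), and none higher, and the list's median log2 fold change was -0.01 beside 0.00 for all genes tested. In Nrf2 eyes edgeR called none of 18, 4 had an unadjusted P under 0.05, DESeq2 called 4 and limma voom 2 (25.8%, 10.5% and 13.2% of all genes), and the median was 0.14 beside 0.02. Between the eyes Myh7, a slow muscle myosin, was higher in Nrf2 eyes at P20 (2.77, adjusted P 0.0102) and P40 (1.96, adjusted P 0.0140), in edgeR. Cdkn1a, an inhibitor of the cell cycle, was higher as well, at 1.76 (adjusted P 0.0342) and 1.21 (adjusted P 0.00812). These made 2 of 18 and 2 of 19 genes, where 3.41% and 4.57% of all genes tested were called, with list medians of -0.24 and 0.01 beside -0.04 and -0.03 for all genes. At an unadjusted P under 0.05 there were 6 at P20 and 3 at P40, DESeq2 called 6 and 3, and limma voom 8 and 2, where all genes had 18.2% and 13%, 12% and 8.27%, and 16% and 7.95%. The difference between the age changes called none of 19 in any of edgeR, DESeq2 and limma voom, and none at an unadjusted P under 0.05, with a median of 0.30 beside 0.03.

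Factors of retinal glia and late progenitors, the setting in which NFI genes are best known in the eye, formed a list of 14. In control eyes Hes5 (-1.57) was among those called lower with age, and the list median over 13 tested was -0.25 beside 0.00 for all genes tested. In Nrf2 eyes Id1 alone was called among 14 (1.54, adjusted P 0.0428, edgeR), where 0.502% of all genes tested were called, with a median of 0.71 beside 0.02. There 5 had an unadjusted P under 0.05, DESeq2 called 5 and limma voom 4, beside 25.8%, 10.5% and 13.2% of all genes. Between the eyes none of 13 was called at P20 by edgeR, with 3 at an unadjusted P under 0.05 and 3 each by DESeq2 and limma voom, and a median of -0.43 beside -0.04. At P40 the list median was -0.04 beside -0.03, and calls of this list there are not reported. Of the 10 RPE transcription factors, edgeR called none with age in either eye, with 4 and 2 at an unadjusted P under 0.05 and 2 and 1 by DESeq2, and medians of 0.21 and -0.08. Crx, which photoreceptors also express, alone was called between the eyes at P40 (-3.34), where all 9 cone markers were called lower (median -3.30) and the list median was -0.11, and none at P20, where 2 had an unadjusted P under 0.05, DESeq2 called 2, and the median was 0.17. The difference between the age changes called none of either list by edgeR or DESeq2, with medians of 0.42 and -0.11. There 1 of each had an unadjusted P under 0.05, beside 2.39% of all genes tested (429 of 17959).

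Without P20 mice 3 and 4 many of the calls of these lists fell away, with fewer libraries in the fits. Over all genes 158 were then called with age in control eyes and 20 in Nrf2 eyes, where all mice gave 2483 and 84. Between the eyes at P20 all mice gave 556, and the other settings, this one among them, gave from 348 to 2605. With age in control eyes Pmel (-1.87) and Col1a1 (-2.43) stayed called among the genes named above, and Ttr (2.48, adjusted P 0.0666), Hes5 (-1.63, 0.0556), Nr2e3 (-2.88, 0.0750), Cdk1 (0.76, 0.0758), Zcchc24 (-1.20, 0.0693), Col1a2 (-1.03, 0.0849) and Nfatc4 (-1.03, 0.0861) did not. Of the fibroblast markers 1 of 9 was then called, and none of the melanocyte, Müller glia, macrophage and microglia, mural cell, blood or dividing cell lists. With age in Nrf2 eyes Pmel (-2.54) stayed called, and Myh11 (-2.79, adjusted P 0.0772) and Id1 (1.56, adjusted P 0.161) did not. Between the eyes at P20 Myh7 (3.13, adjusted P 0.00783), Rpe65 (-2.59) and Rom1 (2.30) stayed called with 1 of the 2 cone markers, and Cdkn1a (1.69, adjusted P 0.0848) and Rgs5 (-1.21, adjusted P 0.101) did not. Hes1 (-1.16, adjusted P 0.0411), Otx1 (-0.48, 0.0462) and Glul (0.63, 0.0478) were called there only without these mice.

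Within groups, over 32 libraries, the genes whose log2 CPM went most closely with Nfix among 10328 compared were Sparc (Pearson r 0.785), Gng11 (0.781), Peak1 (0.780), Tgfb2 (0.775) and Igfbp7 (0.775). In the same order, r without subtracting group means was -0.405, 0.558, 0.563, -0.136 and 0.0784. Their log2 fold changes with age were -0.88, 0.44, 0.17, -0.72 and 0.06 in control eyes and -0.63, 1.40, 0.49, -0.34 and -0.53 in Nrf2 eyes. Among the members the r within groups was 0.429 for Nfib and Nfix, 0.427 for Nfic and Nfix and 0.00393 for Nfia and Nfix. It was 0.552 for Nfia and Nfib, 0.567 for Nfib and Nfic and 0.203 for Nfia and Nfic. Nfix and Nfia had the lowest value of these pairs, and Nfib had at least 0.429 with each of the others. These correlations describe the libraries and were not tested.

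On the GRCm38 build Nfix lies at chr8:84699876-84800344 on the minus strand, Nfic at chr10:81396186-81455635 on the minus strand, Nfib at chr4:82290173-82705750 on the minus strand and Nfia at chr4:97772734-98118874 on the plus strand. The kit does not mark strand as far as is known, so reads from genes that overlap are uncertain. Nfix shares 137 exonic bases with G430095P16Rik on the opposite strand (1.86% of its exonic bases), a gene at 0.208 CPM to 4.23 CPM, and 4 bases with Lyl1. Nfic shares 72 bases (1.09%) with Gm16104, Nfia shares 4 with E130114P18Rik, and Nfib shares none.

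Promoter windows of 300 bases, from 250 before to 50 after a start, were taken from RefSeq on GRCm38.p6 and matched 3 of the 4 members, in 6 windows, with Nfib only named. Both strands were searched for the NFI arm TTGGC, the NFI palindrome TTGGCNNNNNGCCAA, the antioxidant response core TGACNNNGC bound by Nrf2, the AP-1 site TGACTCA and the E-box CACGTG. Of 32851 windows of the table, 46.7% held the arm, 0.0365% the palindrome, 12.4% the antioxidant core, 5.20% the AP-1 site and 7.15% the E-box. The palindrome contains the arm on both strands. No member window held the palindrome, the antioxidant core or the E-box. The windows shown are the 4 that held a searched motif, since Nfix was the member that changed with age and Nfic the member nearest to a change with Nrf2; capitals mark the motif, read 5′ to 3′ on the gene's strand.
Nfix window 2: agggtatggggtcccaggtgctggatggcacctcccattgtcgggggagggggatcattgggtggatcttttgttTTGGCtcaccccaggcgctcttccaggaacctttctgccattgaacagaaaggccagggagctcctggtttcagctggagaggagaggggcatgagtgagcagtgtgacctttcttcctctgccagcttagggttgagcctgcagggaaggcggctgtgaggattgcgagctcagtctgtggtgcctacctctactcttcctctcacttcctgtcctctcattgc
Nfix window 3: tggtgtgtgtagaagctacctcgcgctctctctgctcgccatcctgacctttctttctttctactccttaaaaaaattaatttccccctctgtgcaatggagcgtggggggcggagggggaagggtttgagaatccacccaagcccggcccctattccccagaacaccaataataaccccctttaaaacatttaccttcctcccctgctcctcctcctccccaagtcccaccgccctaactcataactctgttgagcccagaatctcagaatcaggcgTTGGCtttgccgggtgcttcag
Nfix window 4: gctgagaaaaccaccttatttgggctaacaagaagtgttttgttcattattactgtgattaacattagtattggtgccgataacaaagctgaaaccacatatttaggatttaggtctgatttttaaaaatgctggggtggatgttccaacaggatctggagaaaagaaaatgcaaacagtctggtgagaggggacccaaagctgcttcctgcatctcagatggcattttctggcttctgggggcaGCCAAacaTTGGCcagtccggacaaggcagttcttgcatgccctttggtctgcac
Nfic window: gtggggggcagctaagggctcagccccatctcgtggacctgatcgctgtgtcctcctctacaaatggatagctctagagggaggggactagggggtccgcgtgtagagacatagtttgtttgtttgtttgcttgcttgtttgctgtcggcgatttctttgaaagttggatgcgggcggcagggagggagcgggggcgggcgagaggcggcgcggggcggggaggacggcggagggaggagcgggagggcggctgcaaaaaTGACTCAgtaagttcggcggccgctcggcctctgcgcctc

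Nfix window 2, at chr8:84775779-84776078 on the minus strand, held the arm at bases -175 to -171 from its start, and window 3, at chr8:84773361-84773660, at bases 29 to 33. Window 4, at chr8:84772826-84773125, held it on the opposite strand at bases -5 to -1 and on the gene's strand at bases 4 to 8. The Nfic window, at chr10:81427124-81427423 on the minus strand, held the AP-1 site at bases 11 to 17. The Nfix windows lie inside the gene's span on this annotation, and window 3 lies wholly in its exons. The Nfic window also lies inside its gene, with its start at base 81427173 where the span on the minus strand begins at 81455635. The Nfia window lies outside its gene, with its start at base 97581943 where the span begins at 97772734. The search therefore covers these windows only, and other starts of the members were not searched. The Nfia window and Nfix window 1 held none of the motifs. A match describes letters, not binding, and binding was not measured.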

How the data were processed

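The authors deposited estimated counts per gene for 32 libraries: Salmon 0.9.1 estimates per transcript were summed per gene, and the deposited estimated counts are whole numbers, so no further rounding was done. No other normalization was applied to them by the authors. The members were found by gene symbol. The members and the gene lists were chosen with earlier results of these data known.

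The tests used edgeR 4.0.16 under R 4.3.3 (filterByExpr, TMM, quasi-likelihood test, two-sided, Benjamini-Hochberg adjustment over all genes tested, threshold 0.05), on the groups compared. Mouse was a block in the comparisons between eyes and in the test of the difference of age changes. The pairs were taken from matching replicate numbers in the labels, and the study's methods describe paired eyes. After subtracting group means, the mean correlation between eyes so paired was 0.0213 at P20 and 0.0990 at P40. Between different mice it was -0.000519 and -0.00632. The values of single pairs ran from -0.273 to 0.27 at P20 and from -0.352 to 0.618 at P40, so they do not establish the pairs. The edgeR, DESeq2 and limma voom fits were run in their main settings on simulated counts that held changed genes but no mouse effect. The other steps were not tested on simulated data.

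Alternatives were DESeq2 1.42.0, limma 3.58.1 (voom with quality weights), other scaling factors, other filters (none, or at least 10 counts in every library), robust dispersion, offsets for transcript length and GC content (known for 99.85% of genes), no mouse block, 1 fit over all libraries, leaving out P20 mice 3 and 4, and leaving out each eye or mouse. Genes named are the members, up to 4 genes per list with the largest change among those called, and the 5 genes most like Nfix within groups (log2 CPM with a prior count of 2, mean of at least 3). Results for some genes of the lists, calls among them, are not reported. The 5 genes with the smallest P value by age were Nfix, Col4a2 (-2.29), Col4a5 (-2.15), Eln (-2.20) and C1qtnf6 (-2.06) in control eyes and Serpine3 (-3.85), Npnt (-2.09), Trim63 (-1.80), Ciart (2.15) and Lamc1 (-1.23) in Nrf2 eyes, as log2 fold changes.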

Additional observations from a re-analysis of the deposited data

Results flagged for a closer look

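Among 28 sets of values examined, which cover the same libraries repeatedly, 5 held a library far from the others of its group by Dixon's test, where chance gives about 1 in 20 sets. Nfix was 357.8 CPM in P40 Nrf2 mouse 3, against 179.8 CPM in the next library, and Nfic was 308 CPM in the same library, against 186.6 CPM. Nfix was 63.4 CPM in P20 Nrf2 mouse 2, against 48.29 CPM. The NFE2L2 transgene was 1098 CPM in the control library of P20 mouse 3, against 154.3 CPM, and 99.15 CPM in the control library of P40 mouse 8, against 49.05 CPM.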

How the results depend on the processing

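Of 204 values of the members under other settings, 193 held, as did 253 of 256 with an eye or mouse left out: the age change in control eyes had to move by less than the spread between libraries, and any other value to keep its direction and side of the threshold. Nfix in Nrf2 eyes with age missed the threshold without P20 mice 3 and 4 (1.89), where fewer libraries were fitted. Nfib in the same comparison was called by limma voom (-0.31), and Nfic turned to 0.21 with length and GC offsets. Nfic in control eyes with age moved to 0.54 with the same offsets, and within the spread turned to -0.05 by limma voom, -0.02 with no filter and -0.07 without P40 mouse 3, and Nfia to -0.00025 without P40 mouse 1. At P20 Nfic between eyes was called by DESeq2 (0.28), limma voom (0.30) and length and GC offsets (0.44). Nfib between eyes at P20, near 0, turned sign with limma voom (-0.019), with at least 10 counts (-0.020), without P20 mice 3 and 4 (-0.0027), without the mouse block (-0.0019), and over mice left out ran from -0.031 (without mouse 6) to 0.031, with mouse 2 left out also below 0. The difference of age changes of Nfia ran from -0.0097 (without P20 mouse 7) to 0.23 over mice left out. The cause was not tested.

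The number of genes called moved more than the members. In control eyes with age it was 2483, and 4362 by DESeq2, 3747 by limma voom, 914 with no filter, 1169 with length and GC offsets and 158 without P20 mice 3 and 4 (22.2% higher, against 56.5%). With 1 eye left out it ran from 473 (P20 mouse 5) to 4273 (P40 mouse 1), beyond 1.5-fold for P20 mice 1 to 7 and P40 mice 1, 2, 3 and 5. In Nrf2 eyes with age it was 84 (33.3% higher), and 1762 by DESeq2 (65.7% higher), 2213 by limma voom, 31 with no filter, 20 without P20 mice 3 and 4 and 496 in 1 fit over 32 libraries. With 1 eye left out it ran from 21 (P20 mouse 6) to 190 (P40 mouse 2), beyond 1.5-fold for P20 mice 1 to 7 and P40 mice 2, 5, 6, 7 and 8. With no filter the median of all genes there shifted by -0.115 on the log2 scale. Between eyes at P20 it was 556 (85.8% higher), and 1951 by DESeq2 (63.8% higher), 2605 by limma voom, 348 with no filter and 1093 without the mouse block, and ran from 111 (mouse 7) to 1999 (mouse 4) over mice left out, beyond 1.5-fold for all but mouse 2. Between eyes at P40 it was 762, and 1380 by DESeq2 and 1327 by limma voom, and P20 mice had no part in that fit. The difference of age changes gave 1, and 13 by DESeq2. The cause was not tested.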
